A study of Mus musculus with 4 samples.

Results

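Levels of RNA from microRNA genes were compared between regulatory T cells (Treg, a Foxp3-expressing kind of CD4 T cell that holds other immune cells in check) of mice treated with an agonist of death receptor 3 (anti-DR3, an antibody to a receptor of the tumour necrosis factor receptor family) and those of mice treated with a control antibody. Members were chosen by their measured brightness: 483 microRNA genes had a probe set annotated to 1 symbol only, the brightest probe set was taken for each, and the 144 that lay above the median of all probe sets on at least 2 of the 4 arrays were kept. Both groups were mice labelled as strain Foxp3Luci-DTR-4(B6 Albino), a Foxp3 reporter line, and CD4+Foxp3+GFP+ cells were sorted 4 days after intraperitoneal injection. There were 2 arrays of anti-DR3 Treg and 2 arrays of control antibody Treg, and the labels give neither the age of the mice nor whether the replicates are separate animals, so p-values reflect array-to-array spread alone, which may be technical. Values are log2 of the deposited intensity of a probe set, and a difference is anti-DR3 minus control antibody on that scale.

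A microRNA is cut from a hairpin within a longer primary transcript, by Drosha with Dgcr8 in the nucleus and by Dicer1 in the cytoplasm, and 1 arm of it then guides an Argonaute protein to messenger RNAs that pair with its seed, the bases from position 2 to 8. Treg need this pathway: mice whose Treg lack Dicer1 or Drosha are known to develop fatal autoimmune disease. The whole-transcript arrays used here read total RNA from a silica column kit (RNAeasy Minikit, Qiagen) and do not separate primary transcript, hairpin and mature strand. All values below are therefore levels of RNA from a microRNA gene, not of mature microRNA.

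The mature strands of the genes with the clearest differences are shown with the seed in capitals, from RefSeq on build GRCm38.p6, since several of them share a seed. Mir18 is the array's symbol for the gene of miR-18a.
mmu-miR-18a-5p: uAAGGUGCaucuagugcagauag
mmu-miR-17-5p: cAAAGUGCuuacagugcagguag
mmu-miR-20b-5p: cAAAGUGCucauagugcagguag
mmu-miR-16-5p: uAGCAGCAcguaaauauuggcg
mmu-miR-15b-5p: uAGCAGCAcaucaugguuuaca
mmu-miR-15a-5p: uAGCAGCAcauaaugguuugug
mmu-miR-505-3p: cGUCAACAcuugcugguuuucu
mmu-miR-34b-5p: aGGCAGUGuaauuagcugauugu
The miR-17 and miR-20b strands have the seed AAAGUGC in common, and the miR-15 and miR-16 strands the seed AGCAGCA. The miR-16-5p strand is made from 2 genes, Mir16-1 and Mir16-2. Their hairpins are shown because the array measured the genes separately, with both mature arms in capitals.
Mir16-2 hairpin: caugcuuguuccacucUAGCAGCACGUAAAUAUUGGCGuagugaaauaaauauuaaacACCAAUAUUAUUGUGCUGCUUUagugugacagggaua
Mir16-1 hairpin: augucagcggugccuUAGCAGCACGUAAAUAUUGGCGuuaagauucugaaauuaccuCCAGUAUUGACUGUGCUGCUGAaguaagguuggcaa
The Mir16-2 hairpin is 95 bases long and the Mir16-1 hairpin 93, and their longest identical run is 23 bases, which covers the shared 5p strand. The Mir16-2 hairpin lies at chr3:69009902-69009996 on the plus strand and the Mir16-1 hairpin at chr14:61631880-61631972 on the minus strand.

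Of the 144 microRNA genes, 5 fell after anti-DR3 at an adjusted p under 0.05 (limma, Benjamini-Hochberg over all genes tested) and 0 rose. The 5 were Mir18, Mir16-2, Mir17, Mir505 and Mir34b. They make up 3.47% of the microRNA genes, beside 1.47% of all 12114 genes tested that fell, and the 0 rises stand beside 4.49% of all genes that rose. Mir17, Mir20b and Mir3083 entered the test through 1 group only, and without these 3 the count was 4 of 141 (2.84%). At an unadjusted p under 0.05, 27 of the microRNA genes (18.8%) were lower, beside 9.57% of all genes tested, and 6 (4.17%) were higher, beside 16.6% of all genes tested. The changes were modest: 6 microRNA genes differed by at least 1.5-fold and 0 by at least 2-fold.

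Both anti-DR3 arrays lay below both control arrays for 60 microRNA genes (41.7%), beside 24.6% of all genes tested. Both anti-DR3 arrays lay above both control arrays for 17 microRNA genes (11.8%), beside 31.6% of all genes tested, and the groups overlapped for the other 67. The median difference was -0.12 over the microRNA genes, with 105 of 144 (72.9%) below 0, and 0.01 over all genes tested, with 47.6% below 0. The median over the microRNA genes was -0.18 with each array centred on the median gene, where that of all genes was -0.05 and 60.1% of them were below 0, and -0.15 after quantile normalization, where that of all genes was -0.02.

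**Figure D1:**
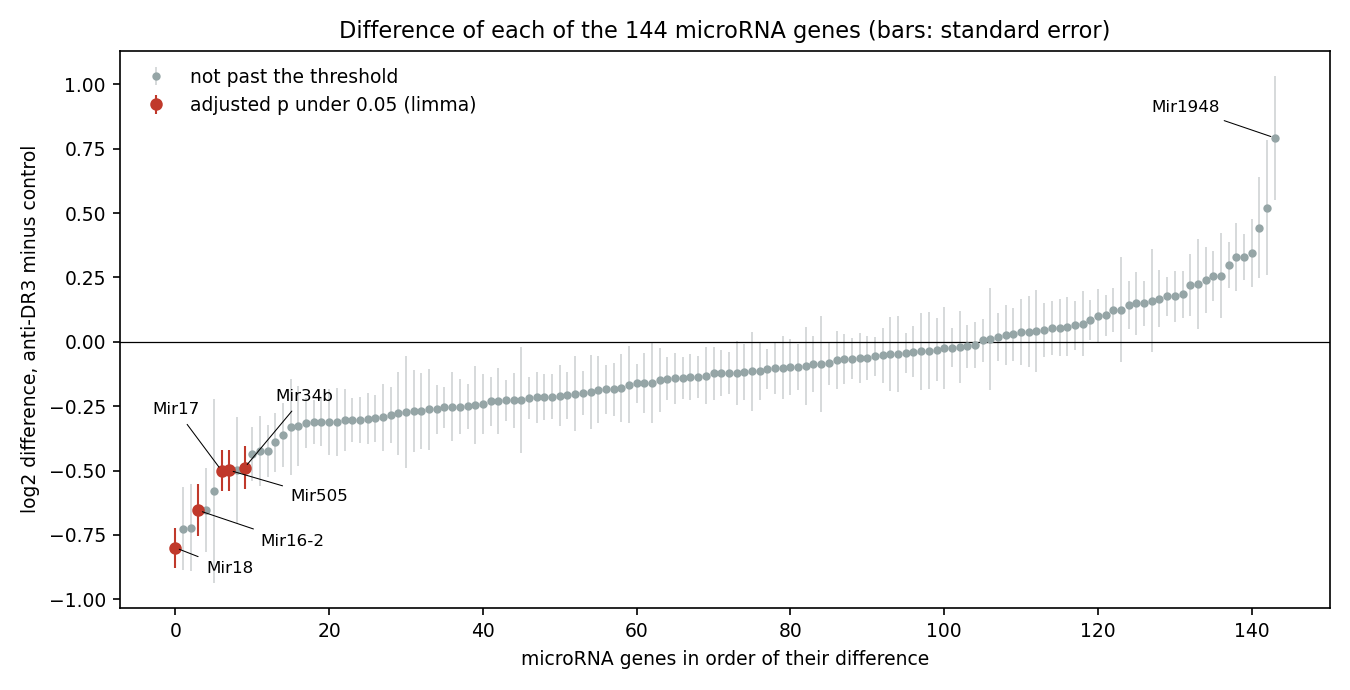
The log2 difference (anti-DR3 minus control antibody) of each of the 144 microRNA genes is plotted in order, with bars for the moderated standard error of limma. The 5 genes past the threshold, in red, all lie on the lower side, between -0.80 and -0.49, and Mir1948 at 0.79 has the highest value without passing it.

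The array medians show the same on the level scale. The median microRNA gene had 6.30 and 6.32 log2 intensity on the anti-DR3 arrays, against 6.40 and 6.45 on the control antibody arrays. The median of all genes tested was 6.81 and 6.81 on the anti-DR3 arrays, against 6.77 and 6.73 on the control antibody arrays, so the microRNA genes lay lower after anti-DR3 in values as deposited, where the median gene lay slightly higher.

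Other short and noncoding RNAs measured on the same arrays also had medians below 0. Small nucleolar RNA genes, which guide the modification of ribosomal RNA, had a median difference of -0.50, with 69 of 70 below 0. Long noncoding RNA genes had a median of -0.06 over 485 genes and protein-coding genes 0.02 over 11148 genes. With each array centred, these 3 medians were -0.56, -0.12 and -0.04, and after quantile normalization they were -0.54, -0.05 and -0.02, so the sign for protein-coding genes flips with the scaling. Whether the microRNA values share a source with those of these classes was not tested. The 339 microRNA genes too dim for the filter had a median of -0.05, with 62.8% below 0.

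**Figure D2:**
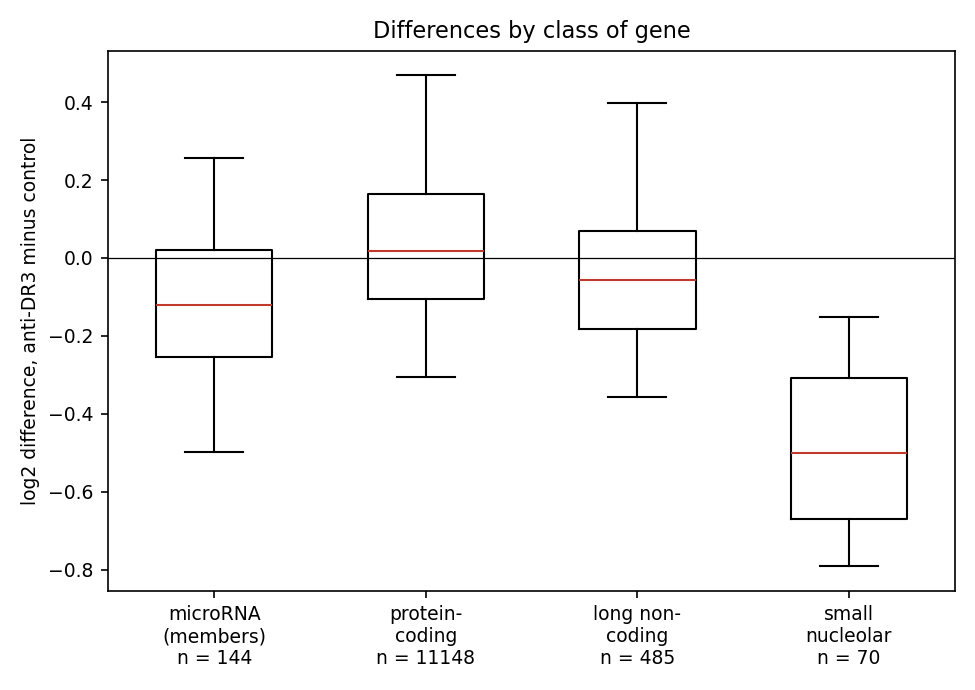
The boxes give the median (red line) and quartiles of the log2 difference (anti-DR3 minus control antibody) for the microRNA genes and for 3 other classes of gene, with whiskers to the 5th and 95th percentile. The median is -0.12 for microRNA genes and 0.02 for protein-coding genes, with small nucleolar RNA genes lowest at -0.50.

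Mir17 and Mir18 of the miR-17~92 cluster fell after anti-DR3. This polycistron, named for its members from miR-17 to miR-92a, is known to favour proliferation and survival of lymphocytes. Mir18 was 5.44 and 5.42 on the anti-DR3 arrays, against 6.25 and 6.21 on the control antibody arrays, a clear gap with almost no spread within either group. It fell by 0.80 on the log2 scale (difference -0.80 ± 0.0775, SE, n = 2 arrays each; adjusted p = 0.0104, limma), to 0.574 of the control level. Every SE given here is the moderated SE of limma, which draws on the spread of all genes tested as well as on the gene's own arrays. Mir17 was 5.19 and 5.25 on the anti-DR3 arrays, against 5.74 and 5.69 on the control antibody arrays, and again the groups did not overlap. Its difference was -0.50 ± 0.0799 (SE; adjusted p = 0.0283, limma). Mir17 was above the array median on both control arrays and on neither anti-DR3 array, so it entered the test only through the group in which it was higher and had to differ. The same holds for Mir20b, and in the other direction Mir3083 entered only through the anti-DR3 arrays.

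Mir19a and Mir20a of the same cluster were too dim for the filter, and the direction of their values matched that of Mir17 and Mir18. Mir19a was 3.97 and 4.09 on the anti-DR3 arrays, against 5.09 and 4.84 on the control antibody arrays, a difference of -0.93. Mir20a was 4.83 and 4.81 on the anti-DR3 arrays, against 5.55 and 5.24 on the control antibody arrays, a difference of -0.57. In neither did the groups overlap, and in the limma fit without the filter their adjusted p were 0.0761 (Mir19a) and 0.163 (Mir20a). The 4 genes are cut from 1 transcript, so they are not independent observations. The Mir18 hairpin lies at chr14:115043851-115043946 and the Mir17 hairpin at chr14:115043671-115043754, both on the plus strand, and no other gene of the RefSeq table used here spans either.

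A paralogous cluster on the X chromosome carries Mir20b, whose 5p strand has the seed of miR-17. Mir20b was 5.10 and 5.24 on the anti-DR3 arrays, against 5.50 and 5.71 on the control antibody arrays. The groups did not overlap, but the difference of -0.44 ± 0.105 (SE) did not pass the threshold (adjusted p = 0.0687, limma). Its neighbours Mir18b, Mir19b-2, Mir92-2 and Mir363 were all dim, with differences of 0.02, 0.14, -0.62 and 0.12.

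Of the 4 genes that carry the miR-15/16 seed, 1 fell, beside 1.47% of all genes tested. MicroRNAs of this family are known to restrain the cell cycle and, in human leukaemia, to target BCL2. Mir16-2 was 6.28 and 6.07 on the anti-DR3 arrays, against 6.79 and 6.87 on the control antibody arrays. It fell, with a difference of -0.65 ± 0.101 (SE; adjusted p = 0.0269, limma). Its neighbour Mir15b was 5.36 and 4.97 on the anti-DR3 arrays, against 6.06 and 5.71 on the control antibody arrays. The groups did not overlap there either, though the replicates lay further apart, and the difference of -0.72 ± 0.17 (SE) did not pass (adjusted p = 0.0661, limma).

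At the other locus the groups overlapped. Mir16-1 was 6.13 and 5.69 on the anti-DR3 arrays, against 5.96 and 5.94 on the control antibody arrays, with a difference of -0.04 ± 0.149 (SE; adjusted p = 0.911, limma). Mir15a was 5.67 and 5.90 on the anti-DR3 arrays, against 5.78 and 5.93 on the control antibody arrays, with a difference of -0.07 ± 0.112 (SE; adjusted p = 0.734, limma). Whether the differences at the 2 loci differ from each other was not tested. The 2 genes encode the same miR-16-5p strand, so the array values do not give the level of mature miR-16.

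**Figure D3:**
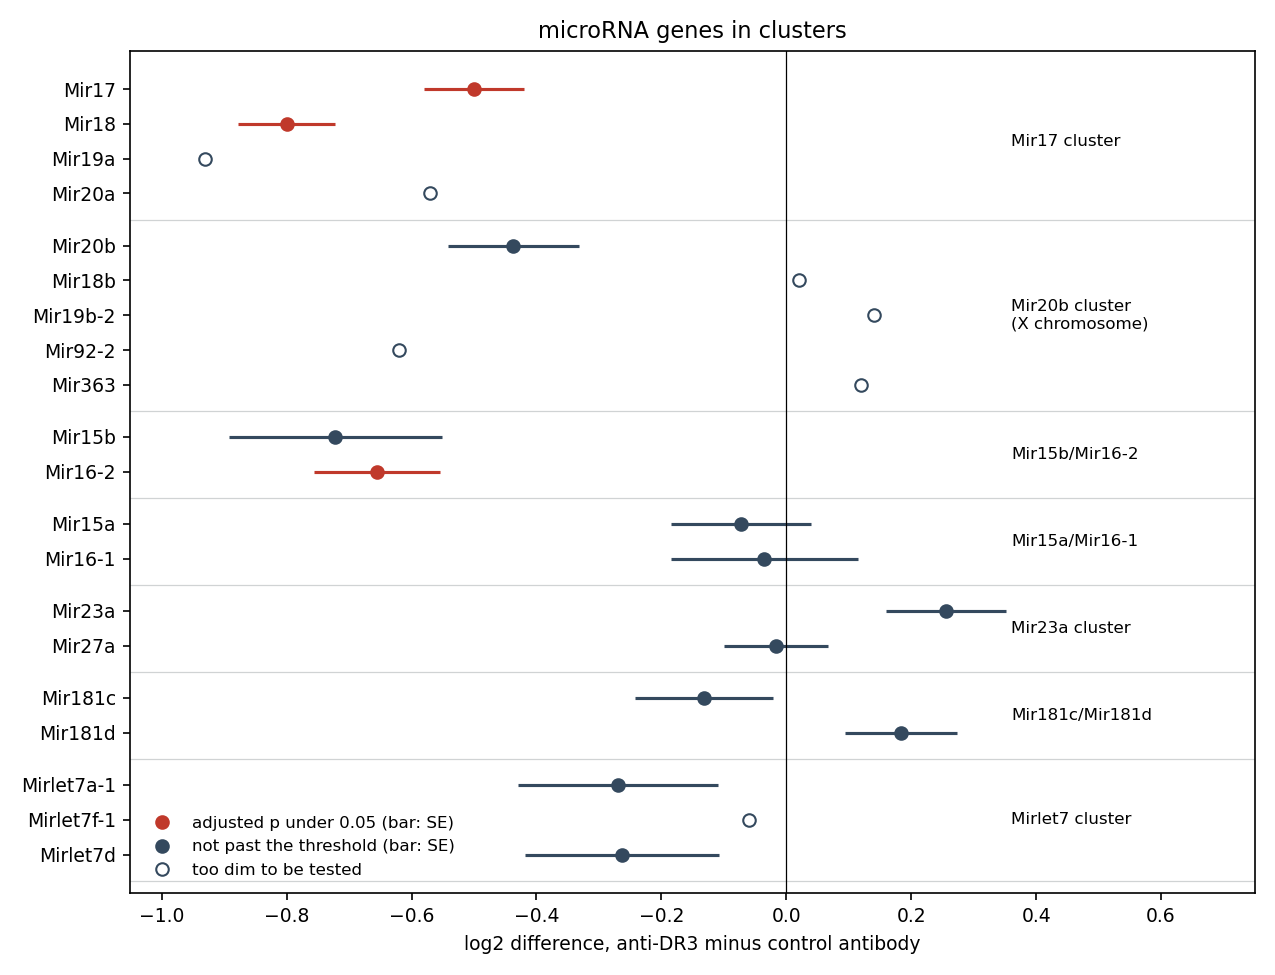
Log2 differences (anti-DR3 minus control antibody) are shown for microRNA genes that lie next to each other in the genome. Bars give the moderated standard error of limma, and open circles mark genes too dim to be tested. All 4 genes of the Mir17 cluster lie at or below -0.50, and Mir15b and Mir16-2 lie near -0.7 while Mir15a and Mir16-1 lie near 0.

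Mir505 and Mir34b were the other microRNA genes past the threshold. Mir505 was 8.21 and 8.18 on the anti-DR3 arrays, against 8.73 and 8.65 on the control antibody arrays, with little spread within either group. It fell, with a difference of -0.50 ± 0.0801 (SE; adjusted p = 0.0283, limma).

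Mir34b belongs to a family known as a direct target of p53. It was 5.44 and 5.42 on the anti-DR3 arrays, against 5.97 and 5.86 on the control antibody arrays. It fell, with a difference of -0.49 ± 0.0829 (SE; adjusted p = 0.0318, limma). Its neighbour Mir34c was dim, at 4.02 and 3.92 on the anti-DR3 arrays, against 4.14 and 4.27 on the control antibody arrays. Mir449b, of a family with a seed related to that of miR-34, was among the 5 members with the highest probe set values, at 11.64 and 11.54 on the anti-DR3 arrays, against 11.72 and 11.75 on the control antibody arrays (difference -0.14; adjusted p = 0.332, limma). The neighbouring Mir449a and Mir449c were dim.

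The 5 calls rest on 2 arrays a group. Leaving out any 1 array gave differences between -0.82 and -0.43 for the 5. Their groups did not overlap, so leaving out an array could not change their direction. Mir16-2, Mir17, Mir505 and Mir34b kept their call in none of these fits, and Mir18 lost it in most of them. These fits have 1 residual degree of freedom and take the spread from the group that keeps both arrays and from the prior, so the lone array is assumed to vary like the other group. An exact permutation test of 2 arrays against 2 cannot go below p = 0.333.

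**Figure D4:**
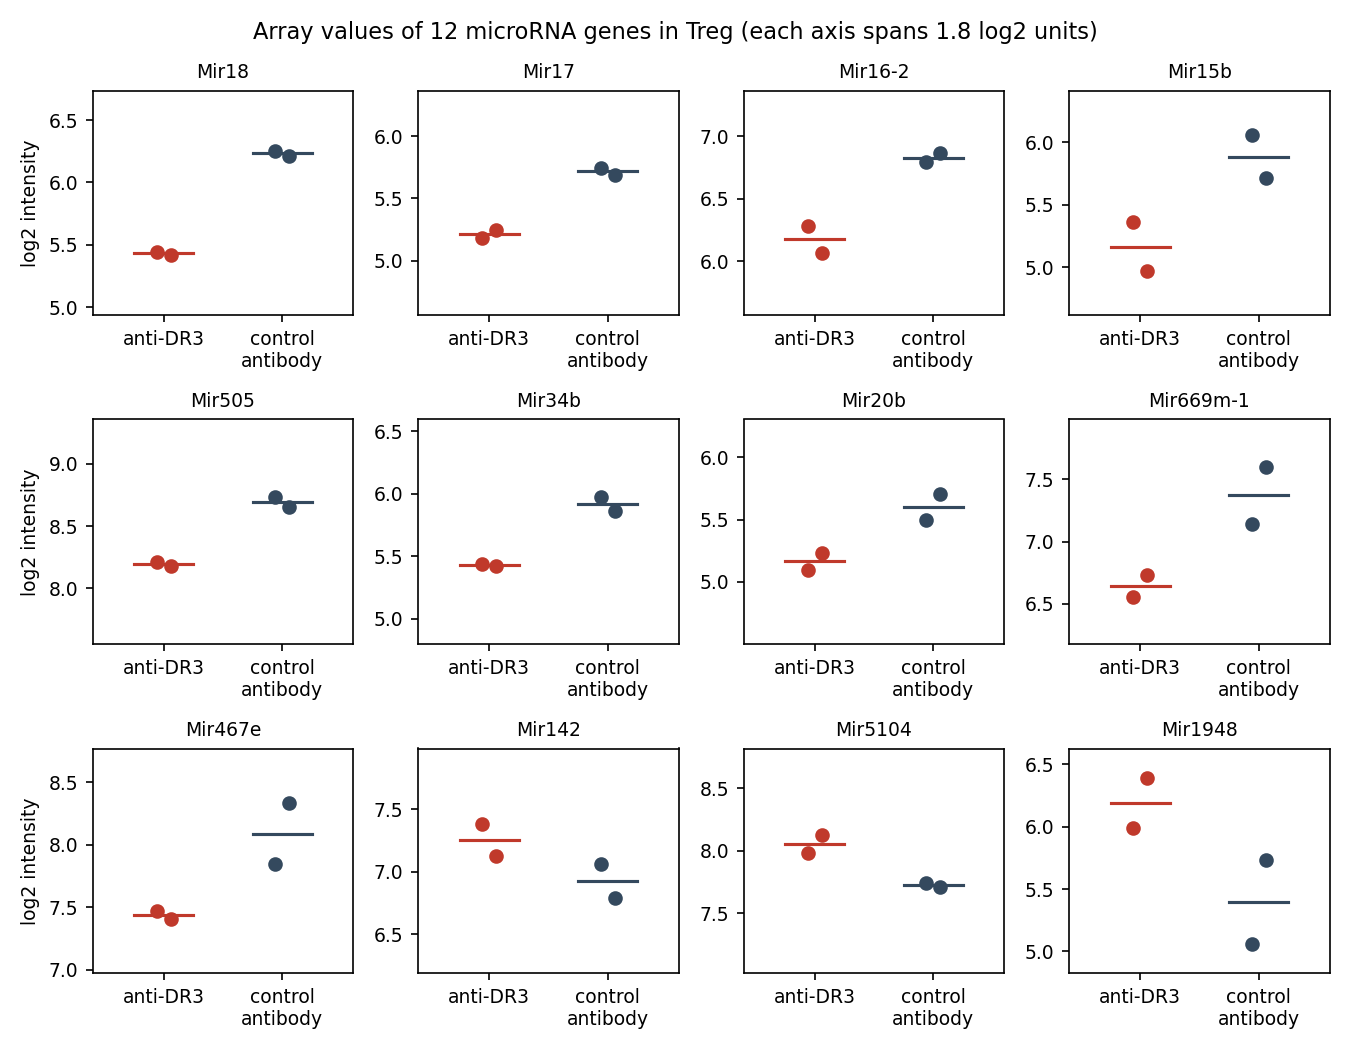
Log2 intensity of 12 microRNA genes on each array (points) with the group mean (line), anti-DR3 on the left and control antibody on the right of each panel. The points of Mir18, Mir17, Mir505 and Mir34b lie close to their means, while those of Mir15b, Mir467e and Mir1948 are spread more widely within a group.

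The largest set of members at 1 locus lay within Sfmbt2, which encodes a Polycomb group protein. The repeats there, known to be intronic, hold the Mir466, Mir467, Mir669 and Mir297 families, best known from early embryo and placenta. The 13 members ranged from -0.73 to 0.44 with a median of -0.14, and 0 of 13 passed the threshold, beside 5.96% of all genes tested. Mir669m-1 was 6.56 and 6.73 on the anti-DR3 arrays, against 7.14 and 7.60 on the control antibody arrays, with a difference of -0.73 (adjusted p = 0.0579, limma). Mir467e was 7.47 and 7.41 on the anti-DR3 arrays, against 7.84 and 8.34 on the control antibody arrays, with a difference of -0.65 (adjusted p = 0.0747, limma). In both the groups did not overlap, and control antibody replicate 2 stood highest.

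Mir466n ran the other way, at 5.65 and 5.97 on the anti-DR3 arrays, against 5.10 and 5.63 on the control antibody arrays (difference 0.44; adjusted p = 0.221, limma). Leaving out 1 array moved its difference between 0.18 and 0.71. Mir466h (-0.31), Mir297a-4 (-0.22) and Mir669i (-0.06) lay below 0, and Mir669h (0.01) just above it. The direction of Mir466b-2 depended on the probe set: the brightest had a difference of 0.16, and the mean of all its probe sets -0.20. Replicate 2 was above replicate 1 for 10 of the 13 in anti-DR3 Treg and for 12 of the 13 in control antibody Treg. These counts give a direction and no amount of variation, and the share over all genes is not given here. Several of these repeats have near-identical copies: some probe sets of Mir669k, Mir669g and Mir466b-2 held the same 4 values, so their signals cannot be assigned to 1 copy. Sfmbt2 itself was 6.12 and 6.43 on the anti-DR3 arrays, against 6.40 and 6.03 on the control antibody arrays, and overlapped between the groups.

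No microRNA gene rose past the threshold in the limma fit of the 2 groups described so far, and the highest values were the following. Mir1948 was 5.99 and 6.39 on the anti-DR3 arrays, against 5.06 and 5.73 on the control antibody arrays, with a difference of 0.79 ± 0.24 (SE; adjusted p = 0.109, limma). It lies within Ttc39c, which rose: Ttc39c was 7.74 and 7.96 on the anti-DR3 arrays, against 6.61 and 6.97 on the control antibody arrays (difference 1.06 ± 0.143, SE; adjusted p = 0.0198, limma). The relative strand of the 2 genes is not given in the tables used here. Control antibody replicate 1 was lowest in both, and without it the difference of Mir1948 was 0.46.

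Mir5104 was 7.98 and 8.13 on the anti-DR3 arrays, against 7.74 and 7.71 on the control antibody arrays, with a difference of 0.33 ± 0.0882 (SE; adjusted p = 0.0832, limma). It lies on the same strand within Zc3h12d, which encodes a ribonuclease of the Regnase family, and Zc3h12d had a difference of 0.35 (adjusted p = 0.141, limma). Mir142, a microRNA of blood cells known to be needed by Treg, was 7.38 and 7.13 on the anti-DR3 arrays, against 7.06 and 6.79 on the control antibody arrays. Its groups did not overlap, but each spread by nearly as much as the means differed (difference 0.33 ± 0.132, SE; adjusted p = 0.186, limma). Mir219a-1 (0.30; adjusted p = 0.106), Mir1960 (0.34; adjusted p = 0.173), Mir3083 (0.24; adjusted p = 0.295) and Mir3473d (0.22; adjusted p = 0.307) were among the 10 highest values without overlap, and none of them passed in limma. Mir101c had a larger difference of 0.52 but overlapping groups.

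In the cluster of Mir23a and Mir27a, whose microRNAs are known to restrain cytokine production of effector T cells, the neighbours differed in value. Mir23a was 7.29 and 7.35 on the anti-DR3 arrays, against 7.16 and 6.97 on the control antibody arrays (difference 0.26; adjusted p = 0.166, limma). Mir27a was 7.31 and 7.20 on the anti-DR3 arrays, against 7.27 and 7.28 on the control antibody arrays (difference -0.02; adjusted p = 0.926, limma). Mir23b, from another chromosome, had a difference of 0.18 with no overlap. Mir181c and Mir181d, neighbours with the seed ACAUUCA and a family known for tuning T cell receptor signalling, had differences of -0.13 with overlap and 0.18 without overlap. Neither passed (adjusted p = 0.502 and 0.26, limma).

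Of 78 microRNA genes on a list of those studied in Treg and other T cells, 19 were bright enough to be tested, 35 were too dim and 24 had no probe set with 1 symbol. Among the 19, 3 fell (Mir18, Mir17 and Mir16-2), 0 rose and the median difference was -0.07, beside 1.47% of all genes tested that fell, 4.49% that rose and a median of 0.01. Without Mir17 and Mir20b, 2 of 17 fell. The let-7 family, known for damping proliferation and growth genes, had 3 tested genes: Mirlet7a-1 had a difference of -0.27, Mirlet7d of -0.26 and Mirlet7i of -0.02, and in all 3 the groups overlapped. Mirlet7g was too dim for the filter, at 4.83 and 4.71 on the anti-DR3 arrays, against 4.94 and 5.05 on the control antibody arrays, without overlap. Mir31, reported in mouse Treg as a negative regulator, was 5.61 and 5.74 on the anti-DR3 arrays, against 5.67 and 5.91 on the control antibody arrays (difference -0.12). Mir29a (-0.05) and Mir30e (0.04) overlapped too.

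Mir30d and Mir191 did not overlap. Mir30d was 5.51 and 5.39 on the anti-DR3 arrays, against 5.73 and 5.77 on the control antibody arrays (difference -0.30; adjusted p = 0.0916, limma). Mir191 was 6.40 and 6.42 on the anti-DR3 arrays, against 6.25 and 6.22 on the control antibody arrays (difference 0.18; adjusted p = 0.217, limma), but a dimmer probe set of Mir191 had a difference of 0.00. Mir150, a microRNA of mature lymphocytes that targets Myb, was too dim for the filter, at 4.92 and 5.27 on the anti-DR3 arrays, against 5.02 and 5.13 on the control antibody arrays.

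On chromosome 12, 8 members lay in the imprinted Dlk1-Dio3 region, whose noncoding RNAs come from the maternal chromosome. Their differences ranged from -0.31 (Mir329) to 0.15 (Mir667), and 0 of 8 passed the threshold, beside 5.96% of all genes tested. Mir329 was 5.87 and 5.78 on the anti-DR3 arrays, against 6.19 and 6.08 on the control antibody arrays (adjusted p = 0.0906, limma). Mir758, Mir665, Mir341 and Mir540 also had both anti-DR3 arrays below both control arrays, with differences of -0.30, -0.23, -0.14 and -0.08. Mir673 and Mir666 overlapped.

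None of the 5 brightest members passed the threshold in limma with the default prior, and Mir5099 did with a trended robust prior (adjusted p = 0.0267). Mir5099 was 12.58 and 12.55 on the anti-DR3 arrays, against 12.83 and 12.74 on the control antibody arrays (difference -0.22; adjusted p = 0.162, limma). Mir703 (0.05), Mir5125 (0.14) and Mir692-1 (-0.14) likewise did not pass. Across the 144 genes the difference had a Pearson r of -0.04 with the mean log2 intensity, a description over genes that share the 4 arrays. Over the 110 genes with a RefSeq hairpin, the r with the GC percent of the hairpin was 0.13.

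Genes just inside and just outside the brightness threshold held similar values. Mir3083, Mir188 and Mir298 were the nearest above it and Mir679, Mir106b and Mir1981 the nearest below it. Mir106b was 5.24 and 5.03 on the anti-DR3 arrays, against 5.37 and 5.44 on the control antibody arrays, where the array medians were 5.33 and 5.34 against 5.38 and 5.39. Of the 144 members, 125 were above the median on 4 arrays, 11 on 3 and 8 on 2, and the 125 had a median difference of -0.12.

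Many microRNA genes sit inside another gene and can be cut from its transcript. Of the 144, 63 lay within a gene on the same strand, 36 within a gene whose relative strand is not given, 5 only within a gene on the opposite strand and 40 within no other gene of the RefSeq table. The median difference was -0.12 for the 63 and -0.13 for the 40. For 49 pairs, with 48 hosts, the same-strand host was tested too. Of the hosts, 2 rose and 0 fell, beside 5.96% of all genes tested past the threshold, and the median host difference was 0.01.

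Both hosts that rose carried a microRNA gene with a difference near 0. Tmem184b was 8.68 and 8.45 on the anti-DR3 arrays, against 8.0 and 8.02 on the control antibody arrays (difference 0.55; adjusted p = 0.0375, limma), and its Mir1943 had a difference of 0.01. Clcn5, a chloride and proton exchanger, was 6.26 and 6.38 on the anti-DR3 arrays, against 5.86 and 5.86 on the control antibody arrays (difference 0.47; adjusted p = 0.0373, limma), and its Mir188 had a difference of 0.04. The sign was the same in 28 of the 49 pairs, the microRNA gene was below 0 with its host above 0 in 15, and the reverse held in 5. Pearson's r over the pairs was 0.33, a description, since both values come from the same arrays and a probe set may read RNA of its host.

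Hosts of the microRNA genes that differed most had values of their own. Smc4, a condensin subunit, spans Mir15b and Mir16-2, with a relative strand that is not given, and was 10.95 and 11.04 on the anti-DR3 arrays, against 11.38 and 11.24 on the control antibody arrays (difference -0.32 ± 0.0895, SE; adjusted p = 0.0941, limma). Dleu2, the long noncoding RNA that carries Mir15a and Mir16-1 on its strand, was 6.09 and 6.06 on the anti-DR3 arrays, against 5.74 and 5.96 on the control antibody arrays (difference 0.23; adjusted p = 0.217, limma). Klf9, a zinc finger factor, had a difference of -0.51 (adjusted p = 0.0997, limma) and its Mir1192 of -0.39 (adjusted p = 0.102, limma). Igf2 had a difference of -0.21 and its Mir483 of -0.42 (adjusted p = 0.239 and 0.0692, limma). Other pairs moved less alike. In 15 of the 49 same-strand pairs the microRNA gene was below 0 and its host above 0. With the strand not given, Rest had 0.14 and its Mir5098 -0.50, Gpc1 0.13 and its Mir149 -0.36, and Cdk17 -0.10 and its Mir1931 -0.58. Mir5098 was 5.37 and 5.24 on the anti-DR3 arrays, against 6.12 and 5.48 on the control antibody arrays (adjusted p = 0.195, limma). Without control antibody replicate 1 its difference was -0.18. Among 12 tested hosts with the strand not given, Ttc39c passed the threshold, beside 5.96% of all genes tested.

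**Figure D5:**
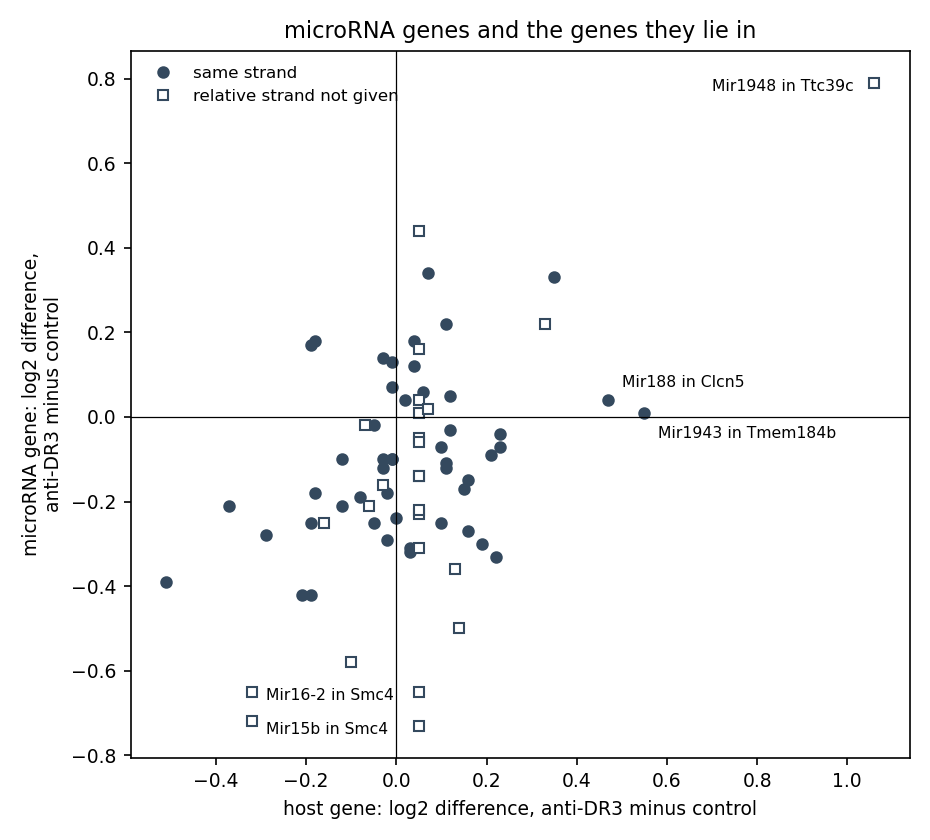
Each point sets the log2 difference (anti-DR3 minus control antibody) of a tested host gene on the x axis beside that of the microRNA gene within it on the y axis, filled where both are on the same strand and open where the relative strand is not given. Mir1948 and Ttc39c lie at the upper right, Mir15b and Mir16-2 with Smc4 at the lower left, and the column of open squares at 0.05 holds the genes within Sfmbt2.

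Genes that make microRNAs or carry out silencing were read from the same fit. Of 51 listed, 41 were tested, 1 rose and 0 fell, beside 4.49% of all genes tested that rose and 1.47% that fell, and the median difference was 0.00. The gene that rose was Prkra, a double-stranded RNA-binding partner of Dicer1, at 5.84 and 6.0 on the anti-DR3 arrays, against 5.39 and 5.42 on the control antibody arrays (difference 0.52 ± 0.0906, SE; adjusted p = 0.035, limma). Dicer1 was 8.08 and 8.07 on the anti-DR3 arrays, against 8.35 and 8.40 on the control antibody arrays. Its groups did not overlap and its difference of -0.30 ± 0.0776 (SE) did not pass (adjusted p = 0.0768, limma). Drosha (0.07), the hairpin exporter Xpo5 (0.02) and Ago2 (-0.07) overlapped. Srsf3, a splicing factor that helps Drosha recognise hairpins, had a difference of -0.31 (adjusted p = 0.0766, limma). Pan3, of a deadenylase complex, had -0.26 (adjusted p = 0.108, limma). In the other direction, Zc3h7b had 0.29 without overlap (adjusted p = 0.0944, limma).

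Known targets of microRNAs studied in Treg were read from the same arrays. Of 24 listed, 19 were tested, 1 fell and 0 rose, beside 1.47% of all genes tested that fell and 4.49% that rose, and the median difference was -0.16. Bcl2, an inhibitor of cell death, was 7.90 and 7.88 on the anti-DR3 arrays, against 8.77 and 8.56 on the control antibody arrays. It fell, with a difference of -0.78 ± 0.098 (SE; adjusted p = 0.0163, limma), so it and Mir16-2 were both lower after anti-DR3. Bcl2l11 and Phlpp2, targets of miR-17~92, had differences of -0.43 (adjusted p = 0.278, limma) and 0.47 (adjusted p = 0.0534, limma). Myb had 0.65 (adjusted p = 0.0584, limma), and Socs1 0.02 with overlapping groups. Sirt1 (-0.37), Bcl6 (-0.33) and Foxo1 (-0.32) were lower without overlap and did not pass (adjusted p = 0.0665, 0.0692 and 0.0838, limma).

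The markers of the sorted cells and of cycling cells moved beside the microRNA genes as follows. Foxp3 was 11.93 and 11.90 on the anti-DR3 arrays, against 11.89 and 11.81 on the control antibody arrays, and of 8 tested Treg and T cell markers Ikzf2 rose (difference 0.58) and Il2ra fell (difference -0.49). Of 15 tested proliferation genes 6 rose (Mki67, Top2a, Ccna2, Ccnb2, Mcm6 and Rrm2, with differences between 0.64 and 1.84) and 0 fell. Over all genes tested, beside which these and the other marker counts stand, 4.49% rose and 1.47% fell. Of the listed markers of other cells, 2 of 7 for B cells, 4 of 7 for monocytes and macrophages, 2 of 7 for CD8 T and natural killer cells and 1 of 7 for red cells and platelets were bright enough to test, and Csf1r (0.42) and Cd8b1 (0.49) rose. The log2 of the summed B cell markers was 8.04 and 8.06 on the anti-DR3 arrays, against 7.97 and 7.95 on the control antibody arrays, and that of the red cell and platelet markers was 6.41 and 6.52 on the anti-DR3 arrays, against 6.65 and 6.61 on the control antibody arrays. That of the monocyte markers was 8.11 and 8.30 on the anti-DR3 arrays, against 7.96 and 8.06 on the control antibody arrays, and that of the CD8 T and natural killer markers was 8.51 and 8.59 on the anti-DR3 arrays, against 8.34 and 8.21 on the control antibody arrays. Their part, and that of the cell cycle, in the microRNA values was not tested, and in bulk samples fewer cells of a type and less RNA per cell cannot be told apart.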

How the data were processed

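The authors deposited linear intensities of probe sets summarised by RMA, per the submitters' processing notes. RNA was labelled with the GeneChip WT PLUS Reagent Kit, per the labels' protocols. The software version and the build were not given in the sources used here. RMA draws arrays to a shared distribution, so a change common to all genes can be hidden. Here log2 was taken of the deposited values, with 1 probe set per gene (the highest mean). Of 22180 genes, 12114 lay above the array median on at least 2 arrays and were tested. The test was limma 3.58.1 in R 4.3.3 (lmFit, eBayes, two-sided, Benjamini-Hochberg over all genes tested, threshold 0.05). The code was first run on simulated data whose spread came from the fitted prior, which does not test the calls made here. The fit had 2 residual and 3.94 prior degrees of freedom. The number of arrays limits the precision. Array medians were 40.2 and 40.4 (anti-DR3) and 41.6 and 42.0 (control antibody); correlations were 0.989 to 0.992 within groups and 0.975 to 0.98 between them. Probe sets with several symbols were not named. The prefix rule also took 5 host-gene symbols ending in hg, all dim.

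Hosts and neighbours came from RefSeq tables (GRCm38.p6), which placed all 144 members and gave 118 a mature sequence. A cluster is neighbours within 10 kb. Members and lists were chosen with earlier results of these data known. Named were members past the threshold, the 10 largest rises and falls without overlap, the 5 brightest, T cell list members and their cluster neighbours. Mir101c, Mir149, Mir1192, Mir1931, Mir483, the chromosome 12 genes, and other hosts and targets were added after their values were seen. Replicate numbers are shared by the groups, but the deviations of same-numbered arrays correlated at 0.051, so they were not treated as pairs.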

Additional observations from a re-analysis of the deposited data

How the results depend on the processing

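The 5 microRNA genes that fell were Mir18, Mir16-2, Mir17, Mir505 and Mir34b. All passed with centred arrays, quantile normalization, the mean of all probe sets, a pseudocount of 16, a trended robust prior and the replicate block. When a gene had to exceed the median on all 4 arrays, 4 of them passed and Mir17 was not tested. An adjusted p under 0.10 in the same limma fit keeps all 5 by construction. With the replicate block 8 of 144 microRNA genes passed the threshold, beside 563 of all 12114 genes. In addition to the 5, these were Mir15b and Mir669m-1 (lower) and Mir1948 (higher). The count was 12 with the trended prior (1444 of all genes) and 8 with the pseudocount (1061 of all genes). At 0.10 it was 13 (1689 of all genes). In limma without the filter the count was 0, with 24 of 144 at an unadjusted p under 0.05, beside 3573 of 22180 genes. In an ordinary linear model it was 0, with 14 at an unadjusted p under 0.05, beside 2087 of 12114 genes. Leaving out 1 array gave 0 to 3, which is not a count of the 5 that were kept. Of the 5 only Mir18 was among them, when control antibody replicate 2 was left out. The others, Mir467e, Mir1931 and Mir5098, had not passed in the main fit. The median was -0.183 with centred arrays. Processing and silencing genes past the threshold numbered 1, against 0 without the filter, with centred arrays, in the ordinary model or without any 1 array, 4 with the trended prior, 2 with the pseudocount and 4 at 0.10. Same-strand hosts numbered 2, against 0 with the replicate block, without the filter, with centred arrays or in the ordinary model. They numbered 1 after quantile normalization, 3 with the trended prior and fewer than in the main fit when any 1 array was left out. Over all genes 544 rose and 178 fell, against 348 and 243 with centred arrays and 362 and 179 after quantile normalization. Over 592 repeats of the named microRNA genes 29 lost and 19 gained a call. The 5 that fell stayed below 0 in each, but several settings leave the difference itself unchanged and could not alter its sign.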

Other observations

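A further 136 probe sets carried several symbols of which at least 1 was a microRNA gene, and 80 of them were bright enough to be fitted. In a limma fit of all 21289 bright probe sets, an alternative added after the data were seen, 0 of these 80 passed the threshold. Their median difference was -0.07. At an unadjusted p under 0.05, 4 were lower and 7 higher, unlike the members, with 27 lower and 6 higher in their own fit. The share of all 21289 probe sets at that p is not given here, so the 4 and 7 cannot be set beside it. That fit made 0 calls among all probe sets.

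Of the members, 21 shared a seed with another, through 11 seeds and in 9 sets of genes. Mir103-2 and Mir107, which share the seed GCAGCAU and sit in pantothenate kinase genes in mammals, had differences of -0.20 and -0.19 with overlapping groups. Mir7-1 and Mir7b, which share the seed GGAAGAC, had differences of -0.25 and -0.12, both without overlap (adjusted p = 0.112 and 0.437, limma). Mir194-1 and Mir194-2, which give the same mature strand, had differences of -0.06 and -0.27.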
